A study of Xenopus tropicalis with 2 samples.

Results

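The pde7b nuclei are 400 nuclei of early gastrulae of the frog Xenopus tropicalis that carried the most RNA of 5 genes, pde7b, ak1, bmpr1b, sox2 and lrp2, for their depth. They were chosen from 5064 gated nuclei with at least 1500 genes detected, at most 8000 unique molecular identifiers (UMIs, distinct transcripts counted once each) and at most 3 UMIs in all of rabgap1l, grhl1 and krt7, a limit meant to set aside nuclei of the outer, superficial cell layer. The study found grhl1 in both the outer and the inner layer, so the limit can also drop inner nuclei. A nucleus was eligible when it had a UMI of pde7b or ak1 and UMIs of at least 2 of the 5 genes, which held for 960 nuclei. The 400 with the highest share of their UMIs in the 5 genes form the set, 7.90% of the gated nuclei, and the other 4664 gated nuclei served as the reference. The working name of the set places it in the inner neural ectoderm, which genes outside the score bore out only in part: sox3, sox11 and lhx5 were higher, but several other neural plate genes were not. The study describes lhx5 as expressed in all of its ectodermal cell states, so its level does not tell neural from other ectoderm.

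The study examined how ectoderm is specified, and these samples profiled RNA of single nuclei from whole wild-type embryos at stage 10.5, with no treatment or other genotype to compare. Embryos were pooled in one preparation of nuclei, which were barcoded by the Parse split-pool method and divided into sublibraries 1 and 2. The pde7b nuclei came from both, 195 from sublibrary 1 and 205 from sublibrary 2. Because both sublibraries sample 1 pool, their difference measures technical spread only, no test between embryos was possible, and the intervals below are 95% intervals of counting error alone.

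In the frog gastrula the ectoderm is built of an outer epithelial layer and inner, deep layers. On the dorsal side, antagonists released by the organizer keep bone morphogenetic protein (BMP) signalling low, and the inner cells there take on a neural fate marked by the SoxB1 factors sox2 and sox3. Ventrally, high BMP signalling leads to epidermis, and the border between both fields gives rise to neural crest and placodes.

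Depth was similar in both groups: the pde7b nuclei had a median of 4525.5 UMIs and 1862.5 genes, against 4349.5 UMIs and 1763 genes in all other gated nuclei. The summed counts held 1911746 UMIs for the pde7b nuclei and 21661297 UMIs for the others, and levels below are counts per 1000000 UMIs of these sums (CPM), which do not correct for gene length and are compared within a gene only. Doublet scores from Scrublet had medians of 0.0317 in the pde7b nuclei and 0.0356 in the others, and 10 pde7b nuclei (2.5%) scored above 0.15, against 128 others (2.74%). Of barcodes with at least 1500 genes, 206 occurred in both sublibraries, and 21 pde7b nuclei had a barcode that also occurred in the other sublibrary. Only 2 barcodes were counted in both sublibraries within the set.

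The score that chose the nuclei was carried mainly by lrp2 and pde7b. lrp2, which encodes the large endocytic receptor megalin, gave 1886 of the 3760 score UMIs (50.2%), and pde7b, a phosphodiesterase that degrades cyclic AMP, gave 1187 (31.6%). sox2 gave 372 UMIs (9.89%), ak1, an adenylate kinase, gave 253 (6.73%), and bmpr1b, a type I BMP receptor, gave 62 (1.65%). A UMI of lrp2 was found in 367 pde7b nuclei, of pde7b in 353, of sox2 in 220, of ak1 in 128 and of bmpr1b in 49, so that 47 of the nuclei entered through ak1 with no pde7b. Only 4 nuclei had all 5 genes, 53 had 4, 199 had 3 and 144 had 2. The nucleus with the highest score had 77.5 score UMIs per 10000, of which 53 of 56 were lrp2. At the edge of the set the scores were nearly equal: the last nucleus inside had 11.923 per 10000 (3 UMIs of pde7b and 4 of lrp2 in 5871) and the first outside had 11.9225 (5 of pde7b and 3 of lrp2 in 6710). The set is thus the upper end of a continuous range, without a gap at its limit. As a description of the choice, pde7b stood at 621 CPM in the pde7b nuclei and 45.0 CPM in all other gated nuclei, lrp2 at 987 and 258 CPM, sox2 at 195 and 87.6 CPM, ak1 at 132 and 13.1 CPM, and bmpr1b at 32.4 and 6.56 CPM.

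For all other genes, a gene was called higher or lower when its level differed at least 2-fold in the same direction in each sublibrary, among 5675 genes with at least 300 UMIs over the nuclei compared. This rule called 56 genes higher in the pde7b nuclei than in all other gated nuclei, 0.987% of those tested, and 384 genes lower, 6.77%. More genes were thus lower than higher. The reference nuclei include mesoderm and endoderm, and 193 genes were lower when 3 sets of such nuclei were taken out of it. This removed only part of them: 3583 nuclei stayed in the reference, while 2505 of the 4664 had a UMI of the mesoderm gene tbxt. The count of higher genes depended on the choice of nuclei: it was 4 when at least 2000 genes per nucleus were required, where 8 of the 20 genes with the highest folds had enough UMIs to be tested and all 8 were at least 2-fold higher, and 16 or 20 when pde7b or lrp2 was left out of the score. It was 21 with the 3 sets of mesoderm and endoderm nuclei out of the reference, and those 20 genes all stayed at least 2-fold higher there.

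The neural character of the nuclei was first examined with genes the score had not used. The SoxB1 gene sox3 had 250 and 236 CPM in sublibraries 1 and 2 of the pde7b nuclei, against 177 and 170 CPM in the other nuclei, a 1.40-fold difference (1.27 to 1.54). sox11, a SoxC factor of early neural tissue, had 691 and 672 CPM, against 384 and 391 CPM, or 1.76-fold (1.66 to 1.86). lhx5, a LIM homeobox gene, had 579 and 562 CPM, against 395 and 357 CPM, or 1.52-fold (1.42 to 1.61). For these 3 genes both sublibraries of the pde7b nuclei lay above both of the reference, though none reached 2-fold. Other neural plate factors did not share this. zic2, a zinc finger factor (0.96-fold), and the forkhead factor foxd4l1.1 (0.89-fold) were near the reference level, with intervals that included 1. Of the genes that mark regions of the plate, otx2 and irx3 were called lower and irx1 was not. otx2, of the forebrain and midbrain, had 8.28 and 6.35 CPM, against 35.7 and 38.6 CPM. irx3 had 8.28 and 19.0 CPM, against 38.5 and 44.0 CPM. Both otx2 and irx3 had their highest levels in the dorsal mesoderm and endoderm nuclei described below, at 137 and 209 CPM for otx2 and 97.1 and 201 CPM for irx3. With those sets and the mesoderm nuclei out of the reference, the log2 folds shrank to 0.25 for sox3, 0.26 for lhx5 and 0.56 for sox11, against 0.49, 0.60 and 0.81 with them, and irx3 stood at -0.51, no longer 2-fold lower. By list, 1 of 3 tested anterior neural genes was called lower and 2 lay above the reference (median log2 fold 0.51). Of 7 posterior genes 6 were called lower (median -1.42), where 6.77% of all tested genes were. The summed posterior list had 1230 CPM in the pde7b nuclei, 1911 CPM in the others and 4353 CPM in the mesoderm nuclei.

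Shares of nuclei with a UMI, after every nucleus was thinned to 2500 UMIs, gave the same picture. sox3 was detected in 44.0% of the pde7b nuclei (39.1 to 49.0%), against 31.3% of the other nuclei and 9.0% of the endoderm nuclei. The endoderm nuclei served as a background and had a similar median depth of 4571 UMIs. Without thinning the shares of sox3 were 61.8%, 45.2% and 14.5%. lhx5 was detected in 65.2% of the pde7b nuclei, against 39.6% of the others and 8.5% of the endoderm nuclei, and sox11 in 76.5%, against 53.0% and 28.2%. Other ectodermal sets described below also had lhx5, in 71.25% of the insm1 and pax3 nuclei and 46.6% of the mettl24 nuclei. These 3 genes were thus found well more often than in endoderm nuclei, and foxd4l1.1, zic4 and ncam1 were also found more often. Several other neural plate genes went the other way. zic2 was found in 6.0% of the pde7b nuclei and 14.5% of the endoderm nuclei, and irx1 in 22.8% and 33.8%. irx3 (3.25% and 30.5%) and otx2 (2.0% and 33.5%) did so too, so the endoderm nuclei did not lack neural plate genes as a group. The mesoderm factor tbxt, the T-box gene of the blastopore ring, was found in 15.8% of the pde7b nuclei, against 47.0% of the others, and in 99.8% of the mesoderm nuclei, which were chosen in part on tbxt. pax3, of the neural border, was found in 12.5%, against 10.9% of the others and 66.5% of the nuclei chosen in part on pax3.

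**Figure D1:**
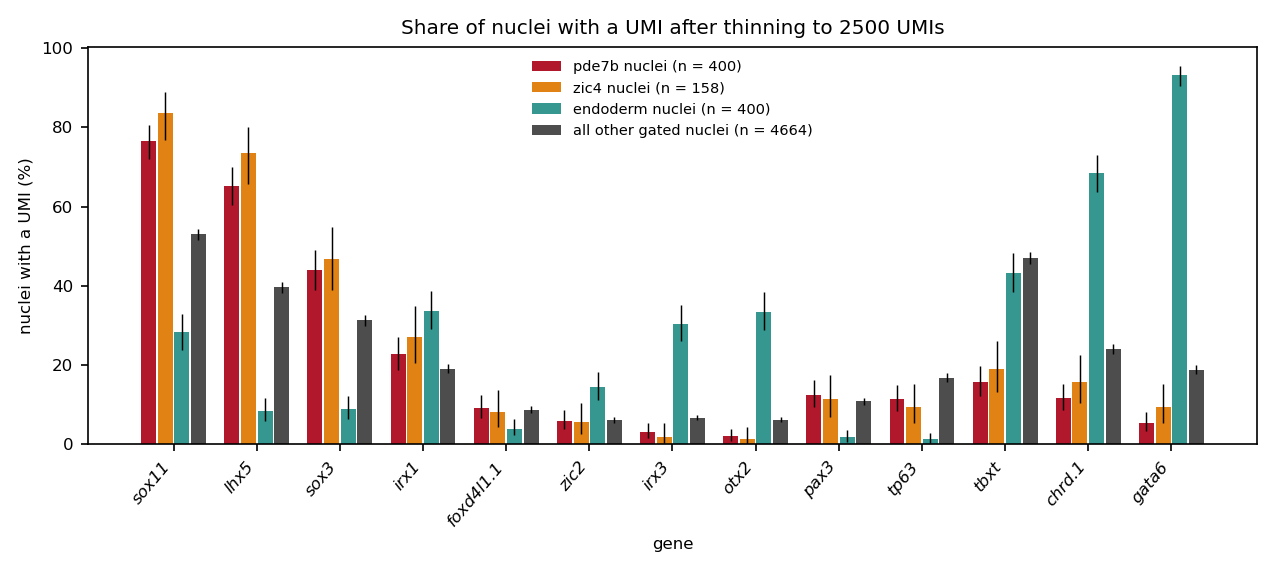
Percentage of nuclei with at least 1 UMI of each gene after thinning to 2500 UMIs, in the pde7b nuclei and in reference sets of nuclei, with exact 95% Clopper-Pearson intervals as error bars. sox3, sox11 and lhx5 stood at 44.0%, 76.5% and 65.2% in the pde7b nuclei, while otx2 and irx3 stood at 2.0% and 3.25%.

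As a list, 15 of 23 tested neural plate genes lay above the reference, with a median log2 fold of 0.31, beside 2965 of 5675 genes and a median of 0.02 over all genes tested. Of these, zic4 and the cell adhesion gene ncam1 were called higher and otx2 and irx3 lower, though ncam1 fell just short of 2-fold (log2 fold 0.95) with the mesoderm and endoderm sets out of the reference. Beside this count and that of the inner layer list below, 0.987% of all tested genes were called higher and 6.77% lower. Summed over the list, the pde7b nuclei had 106 ± 24.6 neural plate UMIs per 10000 (SD over 400 nuclei), against 86.3 ± 26.8 in the 4664 others. In 326 of the 400 pde7b nuclei (81.5%) this sum was above the median of the other nuclei. Among the sets described below, its mean was 102 in the zic4, 92.6 in the mesoderm and 89.9 in the dorsal mesoderm nuclei. It was 85.5 in the insm1 and pax3 nuclei, 72.6 in the endoderm nuclei and 67.5 in the mettl24 nuclei. The sum thus did not separate ectodermal from mesodermal sets. Of the inner layer list, 3 of 12 tested genes were called higher (zic4, the HMG-box factor tox and the laminin chain lama1) and 1 was called lower (fn1, fibronectin), with a median log2 fold of 0.40. Among the fixed inner layer markers, prdm14 had 115 and 148 CPM, against 58.4 and 55.2 CPM, and missed the call by sublibrary 1 alone. zeb2 had a fold of 1.45, while tp63, a factor of the deep epidermal layer, had 80.6 CPM in the pde7b nuclei and 139 CPM in the others.

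The markers of other tissues were low. Beside the counts of this paragraph, 6.77% of all tested genes were called lower and 0.987% higher. In the outer layer list, which is related to the gate of 3 UMIs, 0 of 13 genes lay above the reference, 3 were called lower, and the median log2 fold was -0.79. Of 14 endoderm genes, 14 were called lower (median -2.92), of 23 mesoderm genes 20 (median -1.93), and of 11 dorsal mesoderm and organizer genes 10 (median -2.95). None of the genes on these 3 lists was called higher. The summed mesoderm list was above the upper quartile of the other nuclei in 11 pde7b nuclei (2.75%), the endoderm list in 10 (2.5%) and the dorsal mesoderm list in 22 (5.5%), so that a small number of the nuclei carried such RNA at a high level. The part of these nuclei in the results was not tested. Non-neural ectoderm genes had a median log2 fold of -0.90 with 4 of 15 called lower, among them the BMP ligand bmp7.1 and the GATA factor gata2, and neural border genes had a median of -0.91 with 3 of 9 called lower. After thinning, bmp7.1 was found in 33.0% of the pde7b, 76.7% of the mettl24, 79.5% of the mesoderm and 81.75% of the endoderm nuclei. Its low level is thus not a sign about non-neural ectoderm alone.

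**Figure D2:**
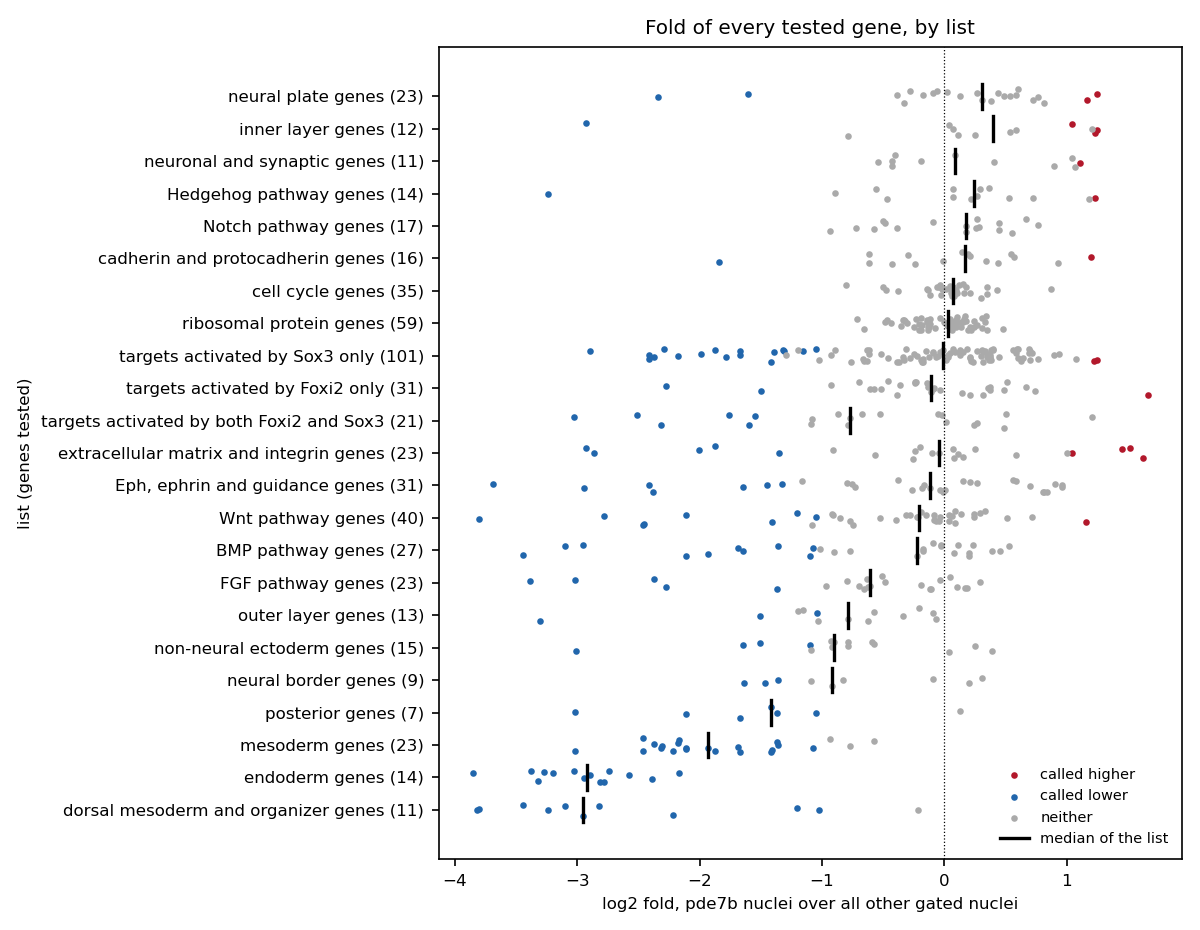
Log2 fold of every tested gene in the pde7b nuclei over all other gated nuclei, 1 row per gene list, with the number of genes tested in brackets, colour for the call and a black bar for the list median. The neural plate and inner layer lists have medians of 0.31 and 0.40, while the dorsal mesoderm, mesoderm and endoderm lists have medians of -2.95, -1.93 and -2.92.

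The gene with the highest fold was nbea, neurobeachin, a large protein that anchors protein kinase A and acts in membrane traffic. It had 370 and 454 CPM in sublibraries 1 and 2 of the pde7b nuclei, against 116 and 135 CPM in the other nuclei, a 3.28-fold difference (3.03 to 3.56). Both sublibraries of the pde7b nuclei stood far above both of the reference. Several genes of the cell surface and the basement membrane followed. itga6, an integrin subunit that binds laminin, had 520 and 562 CPM, against 185 and 192 CPM, or 2.87-fold (2.68 to 3.07). frem1, an extracellular matrix protein of basement membranes, had 73.5 and 70.9 CPM, against 21.5 and 25.4 CPM, or 3.08-fold (2.53 to 3.72). col4a5, a chain of collagen IV, had 103 and 142 CPM, against 42.1 and 47.1 CPM, or 2.74-fold (2.37 to 3.17). lama1 joined them with 449 and 477 CPM, against 220 and 230 CPM, or 2.06-fold. Of 23 tested matrix and integrin genes these 4 were called higher, and 5 were called lower (lama5, has2, itga5, itga4 and fn1). Over all tested genes the shares were 0.987% higher and 6.77% lower. The laminin receptor itga6 and the fibronectin receptor subunits itga4 and itga5 thus moved in opposite directions. The list as a whole was not shifted, with 11 of 23 genes above the reference and a median log2 fold of -0.04. Its sum was 10340 CPM in the pde7b nuclei, 9980 CPM in the others and 12218 CPM in the mettl24 nuclei described below. The gene emilin2, for an elastin-associated matrix protein outside that list, had 158 and 188 CPM in the pde7b nuclei, against 66.5 and 67.7 CPM in the others, and tecta.1, an alpha-tectorin gene, had 59.0 and 93.1 CPM, against 26.3 and 21.4 CPM. tecta.1 was not particular to the set: after thinning it was found in 11.75% of the pde7b nuclei and 12.7% of the zic4 nuclei described below.

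Membrane transporters and enzymes made up another part of the leading genes. The amino acid transporter slc43a2 had 587 and 637 CPM in the pde7b nuclei, against 210 and 212 CPM in the other nuclei, or 2.90-fold (2.72 to 3.09). slc16a12, of the monocarboxylate transporter family, was 3.01-fold higher (2.46 to 3.67), and abcd2, a peroxisomal transporter of very long chain fatty acids, was 2.98-fold higher (2.41 to 3.65). The membrane carbonic anhydrase ca12 had 182 and 252 CPM, against 82.1 and 89.3 CPM. cfh, complement factor H, a secreted inhibitor of complement, had 510 and 597 CPM, against 222 and 220 CPM. The remaining genes of the leading 20 were cuedc1, itprid1, pgm2l1, dtna, pam and cpped1, together with LOC108648189, LOC116406792 and LOC116410852, which were 2.63-fold to 3.24-fold higher. Of 11 tested neuronal and synaptic genes 1 was called higher, where 0.987% of all tested genes were. This was scn8a, a voltage-gated sodium channel, with 94.2 and 108 CPM in the pde7b nuclei, against 43.0 and 50.8 CPM in the others. The list median was near level, at a log2 fold of 0.09 with 6 of 11 genes above the reference. Its sum was 3423 CPM, against 1980 CPM in the others. Other ectodermal sets described below also had a high sum, with 2838 CPM in the zic4, 2902 in the insm1 and pax3 and 3034 in the mettl24 nuclei. The dorsal mesoderm, mesoderm and endoderm nuclei had 728, 720 and 694 CPM, so the sum was not particular to the pde7b nuclei. elavl3, an RNA-binding protein of neurons, had 477 and 533 CPM, against 242 and 239 CPM, just short of the call, and ctnnd2, delta-catenin of neuronal junctions, was 2.30-fold higher.

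**Figure D3:**
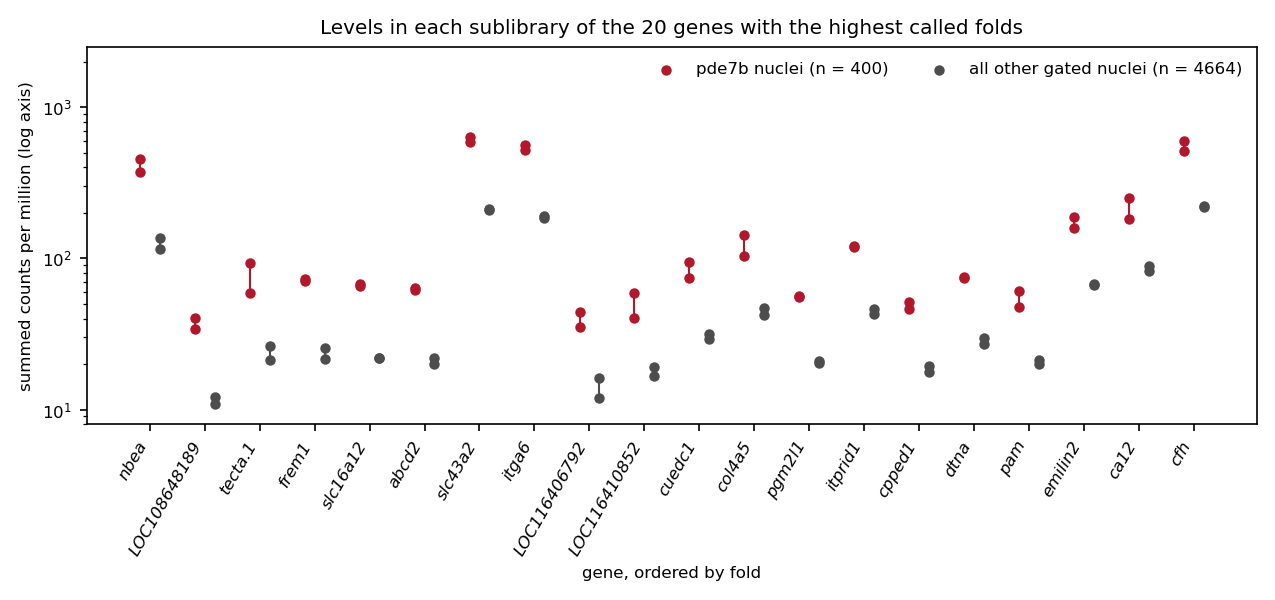
Summed level (CPM, log axis) in each sublibrary of the 20 genes with the highest called folds, as 1 point per sublibrary joined by a line, in the pde7b nuclei (n = 400) and all other gated nuclei (n = 4664). For every gene shown, both points of the pde7b nuclei lie above both of the other nuclei, as for nbea with 370 and 454 CPM against 116 and 135 CPM.

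The levels of nbea and itga6 fell off gradually from the pde7b nuclei to related sets of nuclei. For this comparison, sets were formed in the same way, from nuclei that were not pde7b nuclei: 158 zic4 nuclei (by zic4, LOC108648189 and slc25a24), 400 insm1 and pax3 nuclei (by insm1, pax3 and pdgfa), 73 mettl24 nuclei and 400 nuclei each of dorsal mesoderm, mesoderm and endoderm. nbea stood at 412 CPM in the pde7b nuclei, 253 in the zic4 nuclei, 111 in the insm1 and pax3 nuclei, 101 in the mettl24 nuclei and 31.9 to 64.4 CPM in the 3 mesoderm and endoderm sets. itga6 stood at 541, 375, 253, 202 and 19.0 to 48.6 CPM in the same order. Both genes were thus highest in the pde7b nuclei and lowest in the mesoderm and endoderm sets, with a narrow gap for nbea between these and the mettl24 nuclei. gli1 and lama1 differed from this order. gli1, a transcription factor and target of Hedgehog signalling, stood at 40.8 CPM in the pde7b nuclei and 37.8 CPM in the dorsal mesoderm nuclei, against 19.0 CPM in the zic4 and 3.22 CPM in the insm1 and pax3 nuclei. lama1 stood at 463 CPM in the pde7b nuclei and was higher in the dorsal mesoderm nuclei, at 685 CPM. sox3 did not separate the ectodermal sets, with 243 CPM in the pde7b nuclei, 258 in the zic4 nuclei and 229 in the insm1 and pax3 nuclei, and lhx5 was lower in the pde7b nuclei (571 CPM) than in these 2 sets (761 and 806 CPM).

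**Figure D4:**
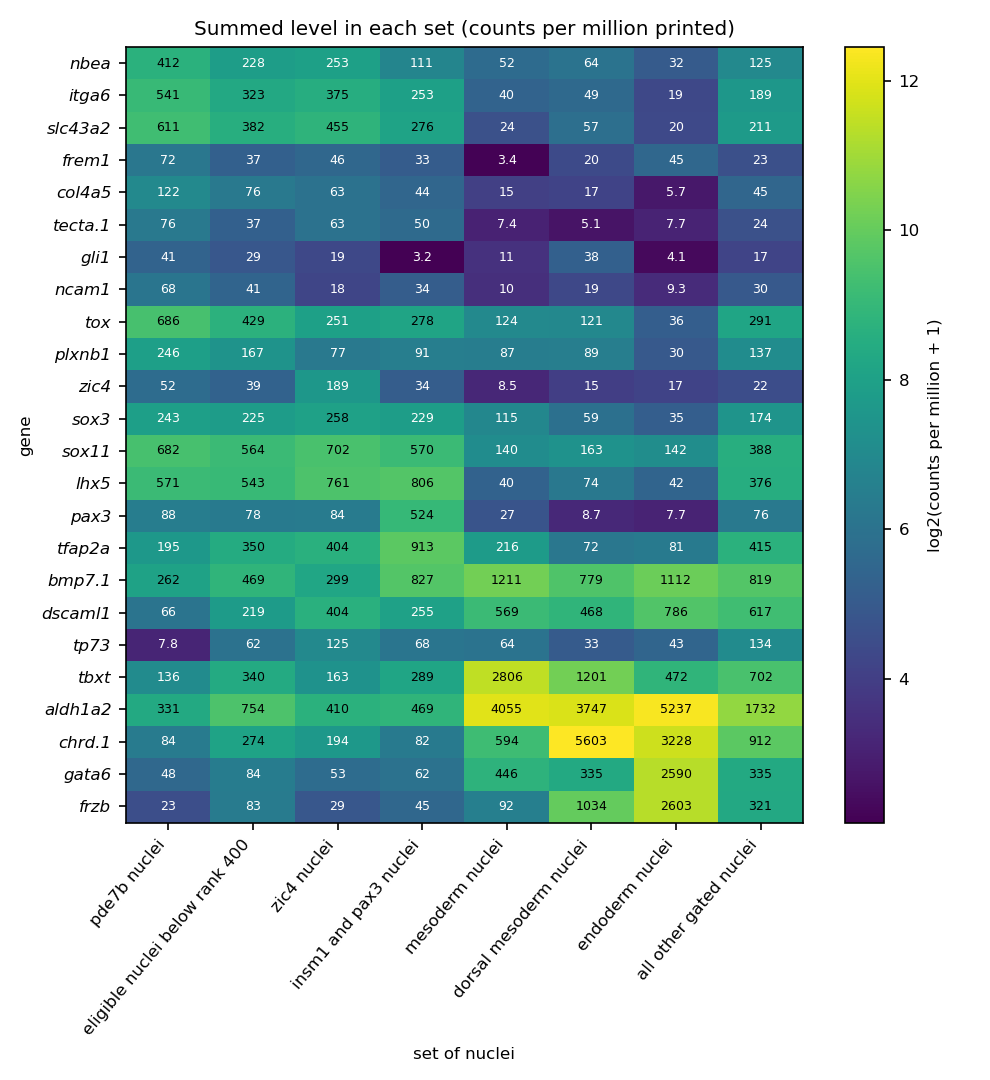
Heat map of the summed level of genes (rows) in each set of nuclei (columns), coloured by log2(CPM + 1) with the CPM printed in each cell. nbea and itga6 are highest in the pde7b nuclei (412 and 541 CPM), while sox3 is at similar levels in the pde7b, zic4 and insm1 and pax3 nuclei (243, 258 and 229 CPM).

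Against the zic4 nuclei, the pde7b nuclei had 12 genes higher (0.651% of 1843 tested) and 2 lower (0.109%). The higher genes included receptors of axon guidance cues and cell contact. The plexin plxnb1, a semaphorin receptor, had 246 CPM in the pde7b nuclei and 77.2 CPM in the zic4 nuclei, or 3.19-fold (2.44 to 4.24). plxna1 (236 and 81.0 CPM), plxnb2 (208 and 81.0 CPM) and the netrin receptor unc5b (312 and 114 CPM) stood in the same relation, as did the receptor phosphatases ptprd (159 and 49.4 CPM) and ptprs (140 and 49.4 CPM). The remaining ones were tox (686 and 251 CPM, 2.74-fold, 2.36 to 3.19), adk, cachd1, acvr2b, dgka and lama1. tox was also common in the mettl24 nuclei: after thinning it was found in 58.9% of them, against 67.0% of the pde7b nuclei and 31.6% of the zic4 nuclei. Both lower genes, dscaml1 (65.9 and 404 CPM) and chrd.1 (83.7 and 194 CPM), were also low against all other nuclei. Their shares after thinning differed less, at 9.5% of the pde7b and 17.1% of the zic4 nuclei for dscaml1 and 11.75% and 15.8% for chrd.1. Summed, dscaml1 and tp73 had no UMI in 77.2% of the zic4 nuclei and up to 132 UMIs per 10000 in one. Much of the dscaml1 difference thus lay in a minority of the zic4 nuclei. None of the 12 was called when pde7b or lrp2 was left out of the score. These settings also changed how many nuclei were compared (273 pde7b nuclei without pde7b in the score, and 178 or 161 zic4 nuclei), and the cause was not tested.

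Against the insm1 and pax3 nuclei, chosen by genes of the neural border, 33 genes were higher in the pde7b nuclei (1.43% of 2305 tested) and 30 were lower (1.3%). lama1 (463 and 117 CPM, 3.95-fold, 3.40 to 4.61) and nbea (412 and 111 CPM, 3.72-fold, 3.19 to 4.36) had the highest folds among the genes named here. unc5b, plxnb1, plxna1, tox and ptprs were higher in this comparison too, which shares the pde7b nuclei with the one against the zic4 nuclei. Among the lower genes, tfap2a, a factor of epidermis and neural crest, had 195 CPM in the pde7b nuclei and 913 CPM in the insm1 and pax3 nuclei. klf5 had 71.1 and 265 CPM, bmp7.1 262 and 827 CPM, and prdm1, of the neural border, was 3.22-fold lower. tbxt was 2.12-fold lower as well.

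Within the range of the score, the surface genes declined step by step below the limit of the set. itga6 had 548, 496, 568 and 549 CPM in ranks 1 to 100, 101 to 200, 201 to 300 and 301 to 400, against 375 CPM in the eligible nuclei of ranks 401 to 600 and 296 CPM in ranks 601 to 960. slc43a2 had 709, 570, 639 and 523 CPM, against 423 and 361 CPM. nbea had 494, 463, 324 and 372 CPM, against 265 and 209 CPM. Within the pde7b nuclei no steady trend of itga6 was seen, and its level fell from 549 to 375 CPM at the limit. However, itga6, nbea and slc43a2 were named for their high folds over a reference that included the eligible nuclei below the limit. That choice of genes favours a fall at the limit, so the fall is no evidence of a boundary there. sox3 was flat over the whole range, with 240, 250, 228 and 256 CPM in the set, against 231 and 221 CPM below it. The mesoderm genes ran the other way: tbxt had 110, 84.8, 159 and 188 CPM within the set, against 333 and 344 CPM below it, and the retinoic acid synthesis gene aldh1a2 had 236, 265, 411 and 406 CPM, against 725 and 768 CPM.

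**Figure D5:**
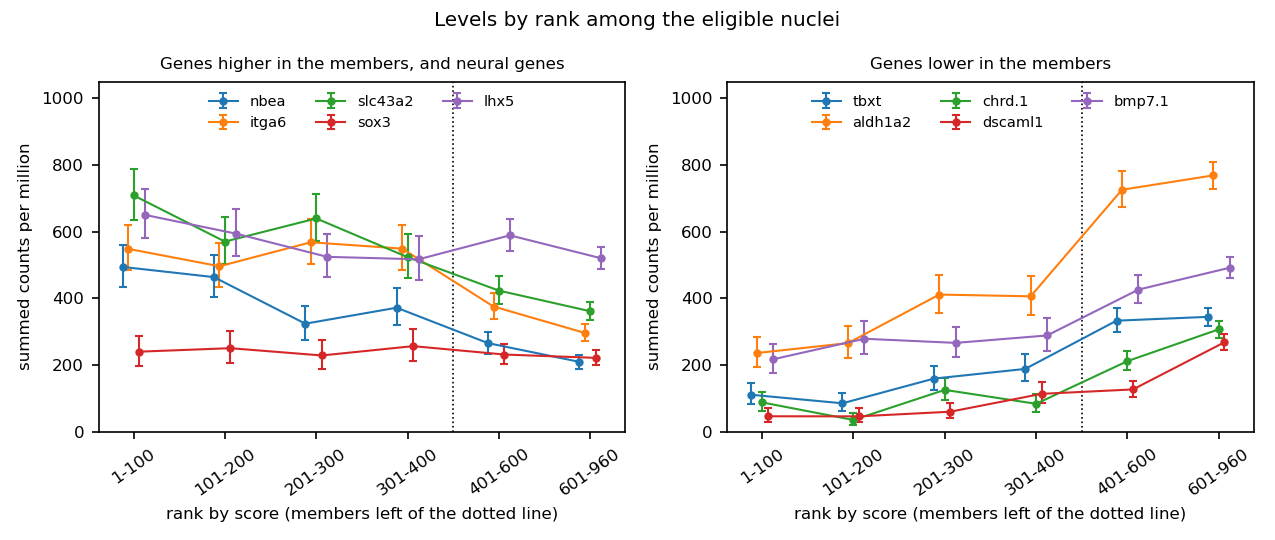
Summed level (CPM) of genes in bands of the score's rank among the 960 eligible nuclei, with exact 95% Poisson intervals as error bars and a dotted line at the limit of the set after rank 400. itga6, nbea and slc43a2 stand higher in the 4 bands of pde7b nuclei than in the 2 bands below, sox3 is level, and tbxt and aldh1a2 stand lower.

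Some leading genes were at similar levels in pde7b nuclei split by their score genes, and others were not. These splits use the UMIs that chose the nuclei, so they do not show which gene brought a nucleus in. The 184 nuclei with at least 3 pde7b UMIs had 729 CPM of lrp2, against 1225 CPM in the 216 with fewer. Median depth differed as well, at 4916.5 and 4227 UMIs. In the 184 nuclei with at least 3 pde7b UMIs nbea had 396 CPM, against 426 CPM in the 216 with fewer, and frem1 had 72.9 and 71.5 CPM. In the same split dtna had 94.6 CPM (75.8 to 117), against 56.4 CPM (42.6 to 73.3), and cpped1 had 33.7 CPM (22.9 to 47.9), against 63.5 CPM (48.8 to 81.2). In the 184 nuclei with most of their score UMIs from lrp2, nbea had 405 CPM, against 418 CPM in the other 216, itga6 had 514 and 565 CPM and slc43a2 637 and 589 CPM. The 128 nuclei with ak1 had somewhat more itga6 (673 CPM) and emilin2 (234 CPM) than the 272 without it (477 and 143 CPM). The 5 genes whose level over the ectodermal sets and the rest was most like that of pde7b were nptn (neuroplastin, a cell adhesion protein), epb41l1 (a protein 4.1 of the membrane skeleton), lsm12, wdr33 and nup58, with r of 0.98 to 0.99 over 5 sets that share a pool and an origin. As pde7b is a score gene, its profile over these sets was fixed by the choice of nuclei. The 5 genes had the highest r of all 5675 tested, so a high r is no evidence of a link to pde7b. Of these, nptn had 161 CPM in the pde7b nuclei and 87.0 CPM in the others, and the other 4 differed by 1.23-fold to 1.62-fold.

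Genes of the organizer, the mesoderm and the endoderm were among those lower in the pde7b nuclei. chrd.1, the BMP antagonist chordin of the organizer, had 101 and 65.6 CPM in the pde7b nuclei, against 881 and 943 CPM in the other nuclei, and was 10.9-fold lower (9.32 to 12.8). tbxt had 122 and 150 CPM, against 707 and 697 CPM, 5.16-fold lower. frzb, a secreted Wnt antagonist, had 20.7 and 25.4 CPM, against 308 and 334 CPM, 14.0-fold lower. The BMP ligand bmp7.1 had 264 and 260 CPM, against 808 and 831 CPM, and was 3.13-fold lower (2.86 to 3.42). dscaml1, a cell adhesion molecule, and tp73, a p53-family factor, mark nuclei that the study left without a cell type name. dscaml1 had 56.9 and 75.1 CPM, against 581 and 653 CPM, 9.36-fold lower, and tp73 had 8.28 and 7.41 CPM, against 143 and 126 CPM, 17.1-fold lower (10.4 to 30.6). Neither gene had a UMI in 323 pde7b nuclei (80.8%) and in 3506 others (75.2%). The 10 called genes with the lowest folds also included spns2, a sphingosine phosphate transporter (8.37 and 224 CPM), the carboxypeptidase-like cpxm2 (4.71 and 123 CPM) and the cyclin-dependent kinase cdk14 (6.28 and 130 CPM).

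Signalling pathways were then examined by role. Cyclic AMP genes as a list did not follow pde7b: 0 of 23 tested were called higher, and pde4d, another cyclic AMP phosphodiesterase, was lower, with 15.2 CPM in the pde7b nuclei and 54.2 CPM in the others. The adenylate cyclase adcy7 had 140 and 90.6 CPM, and the kinase anchor akap13 had 228 and 148 CPM. Likewise 0 of 11 tested genes of the low-density lipoprotein receptor family and endocytosis, the family of lrp2, and 0 of 3 adenylate kinase genes were called in either direction. With 0.987% of all tested genes called higher, lists of this size would hold few such calls, and no more is read from these counts.

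Of 14 tested Hedgehog genes, gli1 was called higher, with 38.3 and 43.4 CPM in the pde7b nuclei and 16.6 and 18.3 CPM in the others, and the ligand shh was called lower. Over all tested genes, 0.987% were called higher and 6.77% lower. shh had only 3 UMIs in all pde7b nuclei, 1.57 CPM, against 14.8 CPM in the others, a ratio of 0.106 (0.0217 to 0.312). hhip, a Hedgehog-binding inhibitor, had 53.8 and 91.0 CPM, against 29.1 and 34.4 CPM, and missed the call in sublibrary 1. The transcription factor gli3 had 1706 CPM, against 1029 CPM, while the transducer smo had 223 and 182 CPM and the co-receptor cdon was below the reference (511 and 751 CPM). 10 of the 14 genes lay above the reference, with a median log2 fold of 0.25. Summed over the list, the level was 3505 CPM in the pde7b nuclei, 3502 CPM in the mettl24 nuclei and 2907 CPM in all other gated nuclei.

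For BMP signalling, 10 of 27 tested genes were lower and 0 higher (median log2 fold -0.22), where 6.77% of all tested genes were lower and 0.987% higher. For fibroblast growth factor signalling 5 of 23 were lower (median -0.60), and for retinoic acid 2 of 10, aldh1a2 and the retinol dehydrogenase rdh10. Of 40 Wnt genes, daam1, a formin of the planar polarity branch, was higher with 489 and 494 CPM, against 217 and 223 CPM, and 8 were lower, among them frzb and the ligand wnt8a. Of 17 Notch genes none was called in either direction (median 0.18). Of 31 Eph, ephrin and guidance genes 7 were lower and 0 higher. Of 18 such genes tested against the zic4 nuclei, 4 were higher and 0 lower, where 0.651% and 0.109% of all genes tested there were. The receptor epha4 had 921 CPM in the pde7b nuclei and 4793 CPM in the others, and the semaphorin co-receptor nrp2 had 47.6 and 612 CPM. Summed, the guidance list had 14486 CPM in the pde7b, 14053 in the zic4 and 13827 in the insm1 and pax3 nuclei. The 3 mesoderm and endoderm sets had 25456 to 28747 CPM. In the same ectodermal sets the fibroblast growth factor list had 8769, 9245 and 9342 CPM and the retinoic acid list 4485, 4567 and 4410 CPM. Low sums of these 3 lists were thus not particular to the pde7b nuclei. Over the 6 pathway lists daam1 was the only gene called higher against all other gated nuclei. In the housekeeping lists, 0 of 35 cell cycle genes and 0 of 59 ribosomal protein genes were called, with medians of 0.07 and 0.03. The summed cell cycle list was somewhat higher, at 12567 CPM, against 11453 CPM in the others and 13187 CPM in the zic4 nuclei. In 271 pde7b nuclei (67.8%) it was above the median of the others. The summed ribosomal protein list had 5177 CPM, against 5431 CPM.

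The study had defined, by knockdown and binding in other samples, targets activated by the maternal factors Foxi2 and Sox3. Of 101 tested targets of Sox3 alone, 2 were higher in the pde7b nuclei (zic4 and slc25a24) and 17 lower, where the shares over all genes were 0.987% higher and 6.77% lower, with a median log2 fold of -0.01, beside 0.02 over all genes. Of 31 targets of Foxi2 alone, tecta.1 was higher and 2 were lower (median -0.10). Of 21 targets of both, 0 were higher and 6 lower (median -0.77). As lists, then, the Sox3 targets were not raised in nuclei that had been chosen in part on sox2.

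By position, 3 of the genes called higher were close neighbours on chromosome 3 of UCB_Xtro_10.0. abcd2 (chr3:75230158-75253795), the inositol transporter gene slc2a13 (chr3:75274340-75341804) and the kinase gene lrrk2 (chr3:75381315-75477709) lay 20.5 and 39.5 kb apart, the only called pairs within 250 kb of each other. abcd2 had 62.1 and 63.5 CPM in the pde7b nuclei, against 20.1 and 22.1 CPM in the other nuclei. slc2a13 had 85.9 and 64.5 CPM, against 30.6 and 31.8 CPM, and lrrk2 465 and 420 CPM, against 202 and 202 CPM. All 3 genes were higher in both sublibraries, as the calling rule requires. c12orf40, which lies between abcd2 and slc2a13, had only 7 UMIs in the pde7b nuclei and was not tested. kif21a on one side was 1.58-fold higher and not called, and spam1 on the other had 0 UMIs in the pde7b nuclei. How many close pairs a like number of tested genes would hold was not tested. The zic4 nuclei had all 3 at similar shares after thinning. abcd2 was found in 12.25% of the pde7b and 10.8% of the zic4 nuclei, slc2a13 in 13.0% and 12.7%, and lrrk2 in 52.75% and 53.8%. Their higher level was thus not particular to the pde7b nuclei. The genes called higher were also long, with a median span of 55.6 kb, against 33.2 kb for genes called lower and 26.1 kb for all genes tested.

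The pde7b nuclei varied among themselves most in a few genes. The Fano factor, the variance over the mean of counts at 2500 UMIs per nucleus, had a median of 1.18 over 2983 genes. It was 12.9 for ssh2, a cofilin phosphatase, of which 108 nuclei had a UMI and 1 had 44. It was 9.84 for epha4, with UMIs in 229 nuclei and up to 34 in one, and 8.31 for ttn, the muscle protein titin, in 52 nuclei. fn1 (5.87, in 60 nuclei), aldh1a2 (5.19, in 113 nuclei) and dscaml1 (4.66, in 38 nuclei) followed a similar pattern, absent from most nuclei and high in some. Several of these genes are ones that were lower in the set as a whole, so that part of what remained of them lay in a minority of the nuclei.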

How the data were processed

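RNA of single nuclei was measured in 2 sublibraries of 1 pool of whole wild-type embryos at stage 10.5, with totals of 44341256 and 44026454 UMIs over all barcodes. The deposited values are counts of distinct transcripts per barcode and gene, which the authors made with the pipeline of the kit's maker on assembly UCB_Xtro_10.0, neither normalised nor filtered, with 215209 barcodes and 21821 genes. The submitters' processing notes also name Scanpy 1.9.6 and Seurat. The sources used here do not say how reads that fit several similar genes were assigned.

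Counts were summed over nuclei and scaled to CPM in Python 3.11.15 (numpy 2.4.6, scipy 1.17.1, pandas 2.3.3). The 5 score genes and 3 gate genes were left out of all calls. With 1 pool no test was made. Intervals are exact Poisson, Clopper-Pearson or conditional binomial 95% intervals, a group at 0 UMIs was set to 3, and the calling rule was checked on simulated counts. Shares were taken after thinning each nucleus to 2500 UMIs. Scrublet (Scanpy 1.11.5) scored doublets, and none was removed except as an alternative.

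Genes named are the score and gate genes, the 20 highest and 10 lowest called folds, the 10 highest and lowest against the zic4 nuclei, the 3 highest and lowest in each gene list, fixed markers and the 5 genes most like pde7b. The genes given against the insm1 and pax3 nuclei, by position, by variation and as further members of a list were chosen after their values were seen. The members and the lists were chosen with earlier results of these data known. Some genes are not reported here. Gene spans and names came from a RefSeq table of the same assembly, which matched 5673 of 5675 genes tested.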

Additional observations from a re-analysis of the deposited data

How the results depend on the processing

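The count of genes higher in the pde7b nuclei than in all other gated nuclei, 56, was 4 with at least 2000 genes per nucleus, 33 with 0 UMIs of the gate genes, 32 with 800 members, 16, 34 and 20 with pde7b, ak1 and lrp2 left out of the score, 311 with a minimum of 1 UMI per gene, and 21 with the mesoderm and endoderm sets out of the reference. The count lower, 384, was 111, 230, 603, 606, 3949 and 193 with at least 2000 genes, 0 UMIs of the gate genes, a minimum of 100 UMIs, no gate limit, a minimum of 1 UMI and that reference. The 20 leading genes stayed above the reference in every setting in which they could be tested.

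Against the zic4 nuclei, the 12 higher genes became 6 (200 members, or thinned), 7 (at least 2000 genes), 5 (no cap on UMIs), 23 and 895 (minimum of 100 and of 1 UMI) and 0 without pde7b or lrp2 in the score. The 2 lower genes became 1 (at least 2000 genes, 800 members, Scrublet scores above 0.15 removed, mean of counts per 10000, or ak1, bmpr1b or lrp2 left out), 0 (cap of 6000 UMIs, thinned, pde7b left out), 6 (free RNA subtracted), 7 (minimum of 100 UMIs), 8 (no cap), 10 (no gate limit) and 583 (minimum of 1 UMI).

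The median log2 fold of neural plate genes, 0.31, was 0.23 (at least 2000 genes), 0.27 (no cap, and cap of 6000 UMIs), 0.34 (0 gate UMIs), 0.40 (no gate limit), 0.42 (200 members), 0.24 (800 members), 0.25, 0.28 and 0.23 (pde7b, ak1 and sox2 left out), 0.20 and 0.36 (minimum of 100 and of 1 UMI), 0.35 (free RNA subtracted), 0.22 (reference with fewer than 3 UMIs of dscaml1 and tp73) and 0.36 (reference without mesoderm and endoderm sets). That of Sox3 targets, -0.01, was 0.063 (0 gate UMIs), -0.085 (minimum of 100 UMIs), -0.22 (no gate limit) and -0.080 (reference without mesoderm and endoderm sets). Leaving out one sublibrary gave neural plate medians of 0.26 to 0.47 and 1 to 2 lower genes against the zic4 nuclei.

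dscaml1 reversed, with a log2 fold of 0.84, when the reference was held to fewer than 3 UMIs of dscaml1 and tp73, as that reference is built to lack them. Both limits on the reference were chosen after seeing the data. The cause of the other changes was not tested. No paired analysis was possible because all nuclei came from 1 group. The depth of a nucleus limits single-nucleus shares, and 1 pool of embryos limits every comparison to technical spread.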
